A study of Mus musculus with 2 samples.

Results

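The cells described here are tumour-like cells of an orthotopic mouse glioma that carried the most Il11, Areg, Grem1, Hmox1, Hbegf, Ndrg1, Ier3 and Ptgs2 RNA, called the Il11/Areg-state cells below. They were taken in 2 steps from the unique molecular identifier (UMI) counts of single cells, where a UMI marks 1 captured RNA molecule. A barcode was tumour-like with at least 10000 UMIs, at most 15% of them mitochondrially encoded, at most 1 UMI of Ptprc, at most 10 of C1qa, C1qb and C1qc together, at most 2 of Cldn5, Flt1 and Pecam1 together, and at least 20 of Vim. Of the 7904 barcodes past the first pair of limits, 5103 were tumour-like. The Il11/Areg-state cells are the top 10% of these, both libraries pooled, by the mean natural logarithm of 1 plus the UMIs per 10000 of the 8 genes. They number 510, with 138 in the LTS library and 372 in the control library, and the other 4593 tumour-like cells are the comparison.

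Kunming mice carried G422, a glioma line of mouse origin that was placed in the brain, and each of 2 groups gave 1 single-cell library. LTS mice were long-term survivors that lived beyond 100 days after combined therapy and then received the same tumour in the opposite side of the brain, with tissue taken on day 7. Control mice were untreated, and their tumour was taken on day 7 after inoculation. The notes also speak of a further survival of over 100 days for the LTS mice, so which inoculation their day 7 counts from, what the therapy was, and how many animals were pooled are not given in the sources used here. In both groups the cells came from a density gradient layer that the protocol describes as the one holding immune cells, so the tumour-like cells are those that reached that layer. With 1 library per group there is no replicate check and no test between conditions, and every interval below is a 95% interval for counting error only.

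Il11 encodes a cytokine of the interleukin 6 family that signals through its own receptor chain and the shared receptor Il6st to STAT3. Areg and Hbegf encode ligands of the epidermal growth factor (EGF) receptor, which are made as membrane proteins, released by sheddases such as Adam17, and act through ERK kinase on AP-1 transcription factors. Grem1 encodes a secreted antagonist of bone morphogenetic proteins (BMPs), Hmox1 the inducible enzyme that breaks down heme, Ptgs2 the inducible cyclooxygenase of prostaglandin synthesis, Ndrg1 a protein induced by hypoxia and other stress, and Ier3 an immediate early response protein. Several of these genes respond to stress or growth factors in many cell types. In human gliomas, hypoxic and mesenchymal tumour cell states are well known.

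Both libraries were of like total size, with 149413534 UMIs in the LTS library and 165796852 in the control library, but LTS tumour-like cells were deeper. The median was 45394 UMIs in LTS Il11/Areg-state cells and 36635 in other LTS tumour-like cells, against 22595.5 in control Il11/Areg-state cells and 19579 in other control tumour-like cells. The endothelial limit kept 1394 of 2439 barcodes in the LTS library and 3720 of 4872 in the control library. Vim stood at 3822 CPM, the UMIs of a gene scaled to a common library total (counts per 1e+06), in LTS Il11/Areg-state cells and 4525 CPM in control ones. The 4 Y-linked genes summed to 0.963 CPM in LTS Il11/Areg-state cells and 0.679 CPM in control ones, against 87.4 CPM in LTS barcodes with 50 or more C1q UMIs and 50.3 CPM in such control barcodes. Mitochondrially encoded UMIs had medians of 4.86% in LTS and 5.17% in control Il11/Areg-state cells, against 5.79% and 5.76% in the other tumour-like cells of the LTS and the control library. Across the libraries, 1 barcode sequence was shared among tumour-like cells and 0 among the Il11/Areg-state cells.

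The Il11/Areg-state cells are the upper end of a score that runs on without a gap at their boundary. Their share of tumour-like cells was 9.94% (8.41 to 11.6) in the LTS library and 10.02% (9.07 to 11.03) in the control library. The ratio of both shares was 0.992, and the outer bounds of both binomial intervals give 0.763 to 1.28. The rule fixes the share of the pooled cells at 10%, so the shares of the libraries depend on each other. They describe how the chosen cells split between the libraries, and the intervals do not cover that dependence. The lowest score inside was 0.605267 and the highest outside 0.605074. Within 5% of that boundary lay 58 Il11/Areg-state cells above and 56 other cells below, and 242 tumour-like cells had a score of 0.

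**Figure D1:**
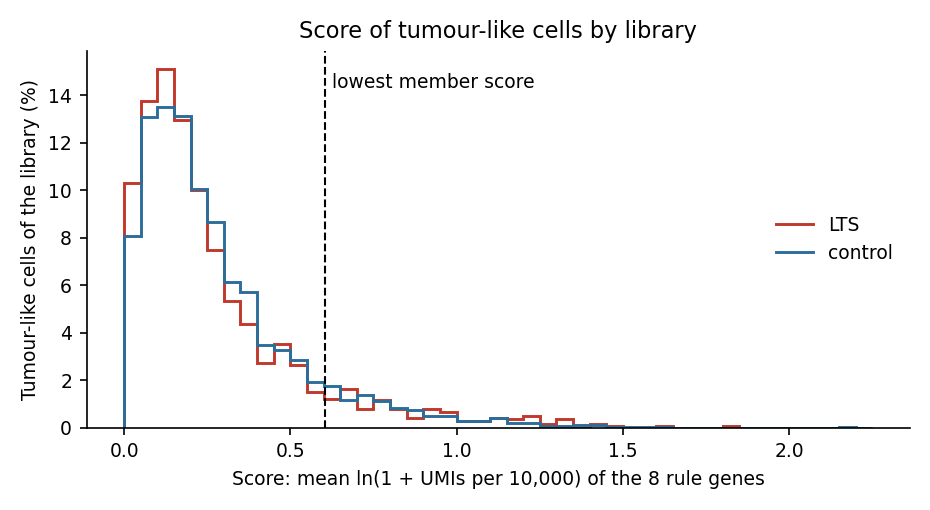
Share of each library's tumour-like cells (vertical axis, %) by score (horizontal axis, mean natural logarithm of 1 plus UMIs per 10,000 of the 8 genes), for the LTS library in red and the control library in blue; the dashed line is the lowest score of the Il11/Areg-state cells. Both outlines fall without a gap at the line, with 138 LTS and 372 control cells to its right.

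On mm10, Il11 lies at chr7:4772373-4782859 on the minus strand and Areg at chr5:91139599-91148432 on the plus strand. The cells were selected on the UMIs of the 8 genes, so the levels of these genes are a description. Il11 had 172 CPM in LTS Il11/Areg-state cells and 13.6 CPM in other LTS tumour-like cells, against 166 CPM and 15.2 CPM in the same cells of the control library. Areg had 104 CPM in LTS Il11/Areg-state cells and 10.2 CPM in other LTS cells, against 107 CPM and 12.2 CPM in control. In fold terms Il11 was 12.7 times (11.5 to 14.0) as high in LTS and 10.9 times (10.1 to 11.8) in control, and Areg 10.2 times (9.08 to 11.5) and 8.76 times (7.98 to 9.62). Hmox1 had 823 CPM in LTS Il11/Areg-state cells and 79.1 CPM in other LTS cells, and 768 CPM and 77.0 CPM in the control library. Hbegf, the second EGF receptor ligand of the score, had 220 CPM and 50.2 CPM in LTS, and 228 CPM and 60.3 CPM in control, in the same order of cells. The smallest fold of the 8 genes was that of Hbegf in both libraries. For Grem1 the Il11/Areg-state cells had 159 CPM and the other cells 24.9 CPM in LTS, and 146 CPM and 29.0 CPM in control. Ptgs2 stood at 173 CPM in the Il11/Areg-state cells of both libraries, against 30.9 CPM in other LTS and 34.0 CPM in other control cells. Ndrg1 and Ier3 were the rule genes that differed most between the Il11/Areg-state cells of the libraries, with 115 CPM in LTS and 86.8 CPM in control for Ndrg1, and 363 CPM in LTS and 270 CPM in control for Ier3. In the other tumour-like cells Ndrg1 had 14.1 CPM (LTS) and 17.6 CPM (control), and Ier3 had 62.2 CPM (LTS) and 55.1 CPM (control).

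**Figure D2:**
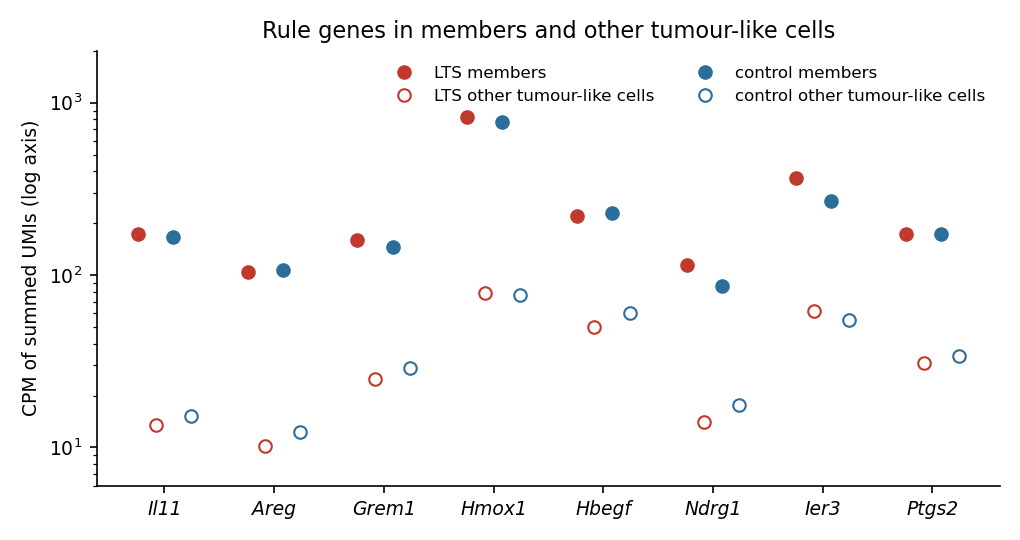
Level of the 8 rule genes (CPM of summed UMIs, log axis) in Il11/Areg-state cells (filled, labelled members) and other tumour-like cells (open), with LTS in red and control in blue. Every filled point lies above both open points of its gene; Il11 is at 172 and 166 CPM in the filled points and at 13.6 and 15.2 CPM in the open ones.

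Not every cell held UMIs of every rule gene. All 8 were found in 45 of 138 LTS and 64 of 372 control Il11/Areg-state cells, and at least 5 in 132 LTS and 334 control ones. To compare cells of unlike depth, each was thinned at random to 10000 UMIs. After thinning, Il11 was found in 47.8% (39.3 to 56.5) of LTS Il11/Areg-state cells and 10.3% (8.68 to 12.1) of other LTS cells, and in 50.8% (45.6 to 56.0) and 10.7% (9.65 to 11.8) in the control library. Without thinning, the Il11 shares were 73.2% and 24.5% in LTS, and 67.5% and 18.5% in control. C1q-high barcodes, which should lack Il11, had it in 3.27% (1.51 to 6.12) of LTS and 10.9% (5.56 to 18.7) of control barcodes after thinning. Those barcodes had a median depth of 15159 UMIs (LTS) and 17912 UMIs (control), and Vim stood at 2697 CPM in the control ones.

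The rule genes accompanied each other in single cells. The 8 genes were put together with earlier results of these data known, so the values in this paragraph are a description and not independent evidence of a joint state. Of LTS tumour-like cells with an Il11 UMI after thinning, 31.8% (25.3 to 38.8) also had Areg, against 9.38% (7.79 to 11.2) of those without Il11. In the control library the shares were 28.4% (24.6 to 32.4) and 10.4% (9.40 to 11.6). Hmox1 and Hbegf went together least in the control library, where Hbegf was found in 39.5% (37.0 to 42.2) of cells with Hmox1 and 36.8% (34.8 to 38.8) of cells without. When each gene was left out and the cells ranked on the other 7, the top cells still had more of the gene left out. Il11 was then 9.92 times (9.01 to 10.9) as high as in the rest in LTS and 7.52 times (6.95 to 8.14) in control. Areg was 7.96 times as high in LTS and 6.78 times in control, and Hmox1, the lowest in control, 3.83 times in LTS and 2.41 times in control. Leaving out Hmox1 also changed the set of cells most, with 108 of 138 LTS and 284 of 372 control Il11/Areg-state cells retained.

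To set sequence beside these levels, the 250 bases before the start of transcription were read for the rule genes and the 12 genes highest in the Il11/Areg-state cells, as far as RefSeq windows on GRCm38.p6 had them, which gave 11 of 20. Both strands were searched for the AP-1 site TGANTCA, found in 6.749% of all 32851 such windows, the cyclic AMP response element TGACGTCA (1.546%), the antioxidant response element core TGACNNNGC (10.16%), the ATF4 and C/EBP element TGATGNAA (3.452%) and the hypoxia response element core ACGTG (16.57%). None of the searched motifs overlapped in the windows printed here. The 5 windows below are shown because they hold a match, in capitals, to the AP-1 site, the cyclic AMP response element or the ATF4 element. A match describes the letters and not a bound site.
Areg, chr5:91139349-91139598, plus strand: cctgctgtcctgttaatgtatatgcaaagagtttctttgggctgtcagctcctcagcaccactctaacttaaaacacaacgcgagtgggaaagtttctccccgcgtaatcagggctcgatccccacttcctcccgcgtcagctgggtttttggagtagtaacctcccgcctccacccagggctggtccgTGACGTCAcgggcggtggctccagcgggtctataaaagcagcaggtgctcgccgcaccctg
Slc7a11, chr3:50443614-50443863, minus strand: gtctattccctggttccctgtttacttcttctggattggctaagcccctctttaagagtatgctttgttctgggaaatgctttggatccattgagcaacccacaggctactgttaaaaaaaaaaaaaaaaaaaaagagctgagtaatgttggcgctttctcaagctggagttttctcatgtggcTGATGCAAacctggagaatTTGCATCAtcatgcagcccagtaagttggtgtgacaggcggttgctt
Srxn1, chr2:152105274-152105523, plus strand: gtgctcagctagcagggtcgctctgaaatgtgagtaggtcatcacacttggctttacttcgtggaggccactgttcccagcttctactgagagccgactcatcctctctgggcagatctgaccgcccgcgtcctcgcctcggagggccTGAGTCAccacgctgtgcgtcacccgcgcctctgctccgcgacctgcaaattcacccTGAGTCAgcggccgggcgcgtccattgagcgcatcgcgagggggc
Mmp3, chr9:7445572-7445821, plus strand: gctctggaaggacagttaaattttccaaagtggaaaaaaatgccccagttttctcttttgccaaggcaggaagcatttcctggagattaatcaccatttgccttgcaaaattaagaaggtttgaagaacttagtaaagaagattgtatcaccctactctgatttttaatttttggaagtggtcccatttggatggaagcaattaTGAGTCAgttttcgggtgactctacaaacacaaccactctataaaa
Plaur, chr7:24462233-24462482, plus strand: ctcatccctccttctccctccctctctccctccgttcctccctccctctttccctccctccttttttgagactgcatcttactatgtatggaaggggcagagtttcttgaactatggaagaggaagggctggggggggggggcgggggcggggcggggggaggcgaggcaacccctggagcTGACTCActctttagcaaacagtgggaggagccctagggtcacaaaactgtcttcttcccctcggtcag
Areg holds 1 cyclic AMP response element 61 bases before the start. Slc7a11 holds the ATF4 element on both strands, 66 and 47 bases before the start, and Srxn1 holds AP-1 sites at 102 and 45 bases. Mmp3 and Plaur each hold 1 AP-1 site, at 46 and 69 bases. Ier3 held 1 hypoxia response element core. No searched letters were found in the windows of Il11, Grem1, Ptgs2, Inhba and Rsbn1.

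Across 8107 genes other than the rule genes with a mean of at least 10 CPM over the 4 sums of cells, 36 (0.444%) were 2-fold or more higher in the Il11/Areg-state cells in both libraries and 28 (0.345%) were 2-fold or more lower. In the LTS library alone 67 (0.826%) were higher and 90 (1.11%) lower by that much, and in the control library alone 37 (0.456%) and 30 (0.37%). Ratios are log2 of CPM plus 5, members over others, which understates low genes, and they come from the cells that were ranked, so they are descriptive too. The count of lower genes was the less stable, with 9 for the top 20% of the score and 64 at a pseudocount of 1 CPM. The median ratio of all tested genes was 0.01 in LTS and -0.01 in control. Of 8115 genes, rule genes included, 4192 were above 0 in LTS and 3884 in control. These are the background for the list counts above or below 0 that follow. The number above 0 in both libraries at once was not counted. Among the 12 highest by the naming rule were Dynap, Stc1, Slc7a11, Srxn1, Cth, Fosl1 and Plaur. Rsbn1 had 243 CPM in LTS Il11/Areg-state cells and 74.3 CPM in other LTS cells, and 201 CPM and 80.6 CPM in control, and Slc14a1, a urea transporter, 60.2 CPM and 14.8 CPM in LTS and 51.3 CPM and 17.0 CPM in control. Dynap had 85.5 CPM and 21.6 CPM in LTS, and 79.1 CPM and 26.5 CPM in control. The naming rule took only genes higher in both libraries, so the shared direction of these 3 genes follows from it.

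**Figure D3:**
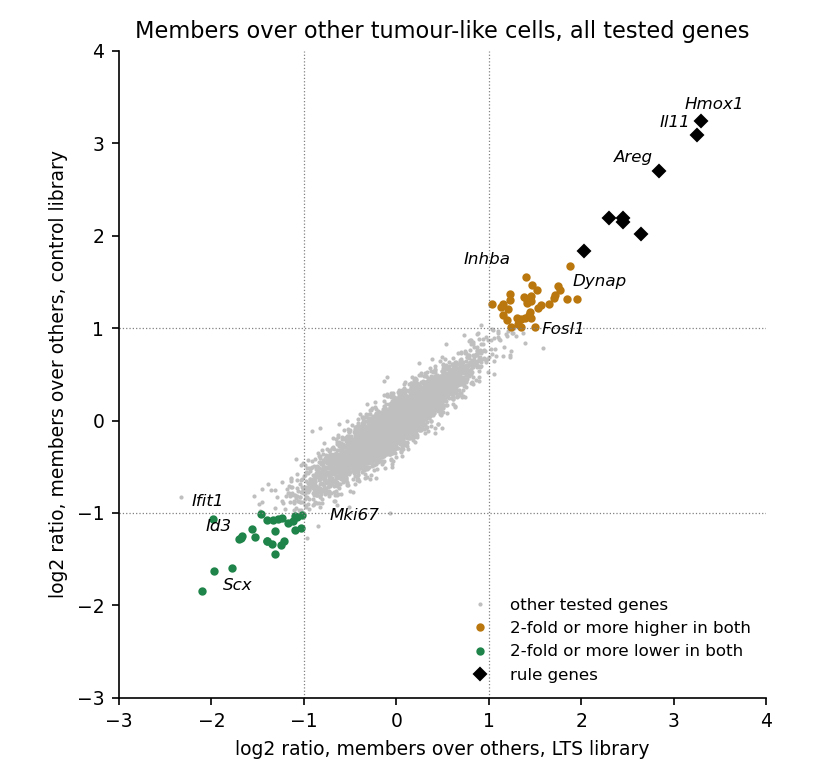
Log2 ratio of Il11/Areg-state cells (members) over other tumour-like cells for each tested gene in the LTS library (horizontal) and the control library (vertical), with rule genes as black diamonds, genes 2-fold or more higher in both in ochre and lower in both in green. The 36 ochre and 28 green genes lie beyond the dotted lines at 1 and -1.

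Other members of the EGF receptor system were mixed. Of 9 tested, 1 was 2-fold or more higher in both libraries and 0 lower, with a list median of 0.60 in LTS and 0.35 in control. The shares over all tested genes were 0.444% higher and 0.345% lower. Without the CPM minimum the LTS median was -0.015. The one was the ligand Ereg, at 51.5 CPM in LTS Il11/Areg-state cells and 19.0 CPM in other LTS cells, and 49.6 CPM and 17.1 CPM in control (2.71-fold, 2.38 to 3.08, in LTS and 2.91-fold, 2.60 to 3.25, in control). The ligand Btc had 20.2 CPM against 7.74 CPM in LTS and 20.6 CPM against 11.1 CPM in control. The receptor Egfr was low, with 15.1 CPM in Il11/Areg-state cells and 8.25 CPM in others in LTS, and 12.3 CPM and 8.56 CPM in control. The sheddases Adam10 and Adam17 had ratios between -0.07 and 0.01, while Rhbdf2, which escorts Adam17, had 0.83 in LTS and 0.58 in control. Errfi1, a feedback inhibitor of the receptor, had 0.60 in LTS and 0.62 in control.

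Genes that ERK kinase induces and AP-1 subunits were higher as lists. The median of 16 ERK output genes was 0.45 in LTS and 0.43 in control, with 11 genes above 0 and 2 below 0 in both libraries. By 2-fold or more 3 were higher and 1 lower in both, against 0.444% and 0.345% of all tested genes. Fosl1, an AP-1 subunit of the Fos family, had 236 CPM in LTS Il11/Areg-state cells and 83.9 CPM in other LTS cells, and 215 CPM and 95.2 CPM in control. The urokinase receptor Plaur had 136 CPM and 46.4 CPM in LTS, and 100.2 CPM and 43.9 CPM in control. The phosphatase Dusp5 was higher, with ratios of 1.20 in LTS and 1.21 in control, and the inhibitor Spry1 lower, with -1.39 and -1.07. Of 10 AP-1 subunits 7 were above 0 and 2 below 0 in both, with medians of 0.55 in LTS and 0.43 in control. Fosl1 and Atf3 were 2-fold or more higher, while Jund had ratios of -0.67 in LTS and -0.50 in control and Jun 0.01 and 0.21. Dissociation of tissue can induce some of these genes. A list of 12 tested dissociation stress genes had medians of 0.29 in LTS and 0.22 in control. Of the 12, 10 were above 0 and 2 below 0 in both libraries. By 2-fold or more 0 were higher in both, where the share over all tested genes was 0.444%. The part of dissociation in the result was not tested.

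In the interleukin 6 family, Il11 was accompanied by Clcf1, another ligand of the family, which had 44.1 CPM in LTS Il11/Areg-state cells and 13.9 CPM in other LTS cells, and 54.8 CPM and 18.7 CPM in control. No other gene of the 7 tested was 2-fold higher or lower in both libraries, and the list median was -0.10 in LTS and 0.09 in control. Among all tested genes 0.444% were that much higher and 0.345% lower. Receptor genes were low: Il11ra1 had 4.17 CPM in LTS and 3.85 CPM in control Il11/Areg-state cells, against 7.40 CPM and 6.44 CPM in the other cells of LTS and control. Il6st had 18.3 CPM in LTS and 23.1 CPM in control Il11/Areg-state cells. Stat3 had ratios of -0.80 in LTS and -0.53 in control.

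Grem1 stood beside a BMP and TGF-beta system that was mostly lower, with 6 of 22 tested genes above 0 and 16 below 0 in both libraries. The list medians were -0.42 in LTS and -0.26 in control. By 2-fold or more 3 of the 22 were higher and 2 lower in both, against 0.444% and 0.345% of all tested genes. The 3 were ligands. Inhba, which encodes the subunit of activin A, had 149 CPM in LTS Il11/Areg-state cells and 53.1 CPM in other LTS cells, and 165 CPM and 52.9 CPM in control. One LTS cell held 29.2% of its UMIs in the Il11/Areg-state cells and 1 control cell 13.1%, and without these cells the ratio was 0.93 in LTS and 1.37 in control. Gdf15 had 47.8 CPM and 9.35 CPM in LTS and 41.0 CPM and 9.43 CPM in control, and Bmp2 62.9 CPM and 28.2 CPM in LTS and 69.0 CPM and 25.9 CPM in control. Without the 1 cell with most Bmp2 in each library its ratio was 0.89 in LTS, under 2-fold, and 1.20 in control. The lower pair was the ligand Tgfb3, with ratios of -1.10 in LTS and -1.03 in control, and the BMP target Id3. Id3 had 92.4 CPM in LTS Il11/Areg-state cells and 313 CPM in other LTS cells, and 105 CPM and 264 CPM in control. Id1, also a BMP target, had ratios of -1.29 in LTS and -0.83 in control, whereas the inhibitor Smad7 had 0.49 and 0.40.

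Hmox1 is a target of NRF2, the regulator of antioxidant genes. Of 23 other tested NRF2 targets and regulators 2 were 2-fold or more higher in both libraries and 0 lower. The shares over all tested genes were 0.444% and 0.345%. The list medians were 0.27 in LTS and 0.18 in control. Slc7a11, the cystine transporter, had 147 CPM in LTS Il11/Areg-state cells and 50.3 CPM in other LTS cells, and 110.4 CPM and 40.2 CPM in control. Srxn1, sulfiredoxin, had 90.0 CPM and 29.6 CPM in LTS and 80.1 CPM and 29.7 CPM in control. Gclm, a subunit of the enzyme that begins glutathione synthesis, had ratios of 0.92 in LTS and 0.83 in control. Of 11 other tested genes of heme and iron handling, 5 were above 0 and 5 below 0 in both libraries. Their medians were -0.065 in LTS and 0.047 in control. The ferritin chain Fth1 had ratios of -0.07 in LTS and -0.03 in control. In either direction 0 of the 11 passed 2-fold, where the shares over all tested genes were 0.444% higher and 0.345% lower. Of the 4 tested genes of the prostaglandin pathway 3 were above 0 in both libraries, with medians of 0.24 in LTS and 0.23 in control. Here too 0 passed 2-fold, near the shares over all tested genes. Ptges, a synthase downstream of Ptgs2, had 0.36 in LTS and 0.42 in control.

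Targets of ATF4, which responds to amino acid shortage and protein stress, were higher as a list. Among all tested genes 0.444% were 2-fold or more higher in both libraries and 0.345% lower, and 4192 of 8115 were above 0 in LTS and 3884 in control. Of 19 ATF4 targets tested, 18 had a higher level in both libraries, and the medians were 0.57 in LTS and 0.43 in control. Only 2 of them reached 2-fold in both. These were Cth, an enzyme of cysteine synthesis, with 165 CPM in LTS Il11/Areg-state cells and 57.3 CPM in other LTS cells, and 129.8 CPM and 55.0 CPM in control, and Chac1, which degrades glutathione, with ratios of 1.24 in LTS and 1.01 in control. Without the 1 cell with most Chac1 in each library they were 1.20 in LTS and 0.98 in control, the last under 2-fold. Atf4 itself had 609 CPM and 330.2 CPM in LTS and 544 CPM and 332 CPM in control. Among the top 10% of tumour-like cells by this list were 39.9% (31.6 to 48.5) of LTS Il11/Areg-state cells and 6.87% (5.54 to 8.42) of other LTS cells, and 33.9% (29.1 to 38.9) and 7.27% (6.41 to 8.20) in control. The 19 ER chaperone genes, another arm of protein stress, had medians of -0.08 in LTS and -0.04 in control. Of 12 p53 targets 1 passed, the cell cycle inhibitor Cdkn1a, with ratios of 1.31 in LTS and 1.11 in control.

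Hypoxia-induced genes were modestly higher, beyond Ndrg1. Of 33 tested, 2 were 2-fold or more higher in both libraries and 0 lower, against 0.444% and 0.345% of all tested genes. The medians were 0.29 in LTS and 0.15 in control. Stc1, stanniocalcin, had 82.5 CPM in LTS Il11/Areg-state cells and 25.4 CPM in other LTS cells, and 78.4 CPM and 26.4 CPM in control. Hk2, a hexokinase, had 45.6 CPM and 14.3 CPM in LTS, and 63.6 CPM and 26.8 CPM in control. The glucose transporter Slc2a1 had ratios of 1.23 in LTS and 0.71 in control, and Gapdh 0.08 and 0.00. The top 10% by this list held 21.0% (14.5 to 28.8) of LTS Il11/Areg-state cells and 6.63% (5.32 to 8.16) of other LTS cells, and 18.3% (14.5 to 22.6) and 9.87% (8.88 to 10.9) in control.

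Of 11 tested proteases and inhibitors of the matrix and the plasminogen system, 6 were above 0 and 5 below 0 in both libraries. Mmp3 and Plaur, 2 of the 11, were 2-fold or more higher in both. The shares over all tested genes were 0.444% higher and 0.345% lower. The list medians were 0.10 in LTS and 0.038 in control. At other settings the median was of opposite sign in 1 of 17 in LTS and 6 of 17 in control. Mmp3, stromelysin, had 292 CPM in LTS Il11/Areg-state cells and 121 CPM in other LTS cells, and 368 CPM and 139.9 CPM in control. One control cell held 21.4% of the UMIs of Mmp3 in the control Il11/Areg-state cells, and without it the control ratio was 1.03. Mmp14 had ratios of -0.71 in LTS and -0.55 in control. Of 18 matrix genes 16 were lower in both libraries but 0 by 2-fold, with medians of -0.62 in LTS and -0.42 in control. Col3a1 had 560 CPM in LTS Il11/Areg-state cells and 902 CPM in other LTS cells, and 565 CPM and 776 CPM in control. The lowest gene by the naming rule was Scx, scleraxis, a transcription factor of tendon cells, with 45.1 CPM and 191 CPM in LTS and 47.5 CPM and 158 CPM in control. The gene overlaps Bop1 on the opposite strand, and no source used here states how strands were counted. The tumour-like cells of both libraries were also cut into 10 bins of the score, with about as many cells each, of which bin 10 is the Il11/Areg-state cells and 1 LTS cell just below them. Scx had 282 CPM in bin 1, 310.03 CPM in bin 2, 188 CPM in bin 5, 83.4 CPM in bin 9 and 45.4 CPM in bin 10 of the LTS library. In the control library it had 225 CPM in bin 1, 229 CPM in bin 2, 171 CPM in bin 5, 77.2 CPM in bin 9 and 47.5 CPM in bin 10. Pdgfrb, a receptor of mural cells, had ratios of -1.56 in LTS and -1.18 in control.

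Mitosis genes were lower and DNA synthesis genes slightly higher. All 24 mitosis genes were below 0 in both libraries, with medians of -0.60 in LTS and -0.50 in control. The spindle protein gene Nusap1, 1 of the 24, passed 2-fold in both. Among all tested genes 0.444% were 2-fold or more higher and 0.345% lower. Mki67 had 78.1 CPM in LTS Il11/Areg-state cells and 146 CPM in other LTS cells, and 106 CPM and 201 CPM in control. Of 26 DNA synthesis genes 18 were above 0 in both, with medians of 0.20 in LTS and 0.15 in control, and 0 reached 2-fold. Rrm2, a subunit of ribonucleotide reductase, had 185 CPM and 117 CPM in LTS and 209 CPM and 136 CPM in control. The top 30% by mitosis genes held 11.6% (6.77 to 18.1) of LTS Il11/Areg-state cells and 30.0% (27.4 to 32.6) of other LTS cells, and 10.5% (7.56 to 14.1) and 32.9% (31.4 to 34.6) in control. Without those mitosis-high cells, the mitosis medians of the rest were 0.20 in LTS and 0.08 in control.

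Interferon-induced genes had the lowest medians of the lists with 3 or more tested genes, -1.04 in LTS and -0.95 in control. All 15 tested genes were below 0 in both libraries. By 2-fold or more 5 were lower in both, against 0.345% of all tested genes. Ifit1, an antiviral RNA-binding protein, had 4.33 CPM in LTS Il11/Areg-state cells and 31.9 CPM in other LTS cells, and 14.8 CPM and 36.4 CPM in control. The GTPase Igtp had 5.62 CPM and 21.7 CPM in LTS and 8.49 CPM and 23.5 CPM in control. Irf1, a transcription factor of the response, had ratios of -1.20 in LTS and -0.95 in control. The summed level of the list was uneven along the score in LTS, at 1287 CPM in bin 3, 729.7 CPM in bin 6, 1013 CPM in bin 9 and 591 CPM in bin 10, and ran between 923 and 1170.2 CPM in bins 1 to 9 and at 704 CPM in bin 10 of the control library. Without the 10% of tumour-like cells highest in these genes, the medians were -0.66 in LTS and -0.67 in control. Of 8 tested genes of MHC class I presentation 1 was above 0 and 5 were below 0 in both libraries. Their medians were -0.37 in LTS and -0.30 in control. Of the 8, 0 passed 2-fold, where the shares over all tested genes were 0.444% higher and 0.345% lower. B2m had ratios of -0.03 in LTS and 0.02 in control.

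**Figure D4:**
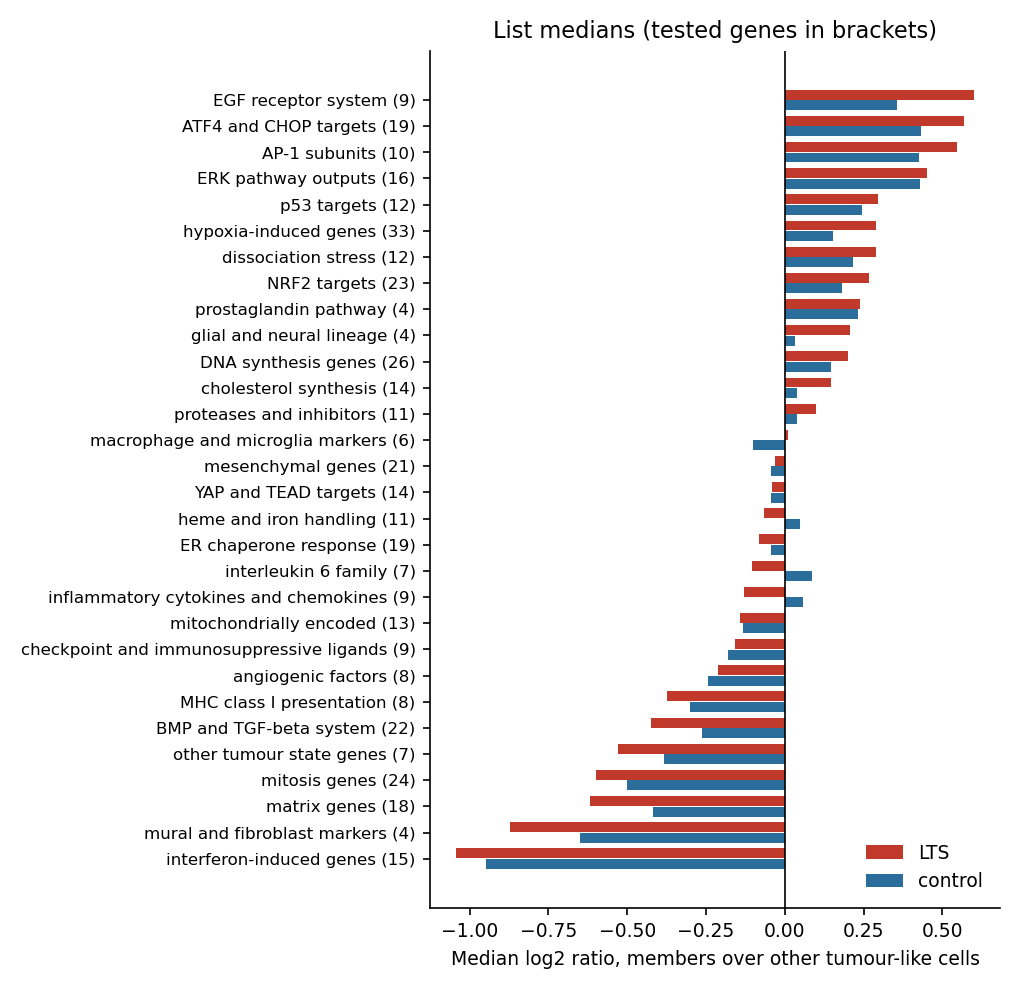
Median log2 ratio of Il11/Areg-state cells over other tumour-like cells (horizontal axis) for each gene list with 3 or more tested genes, in the LTS library (red) and the control library (blue), with the number of tested genes in brackets. ATF4 targets reach 0.57 in LTS and 0.43 in control, and interferon-induced genes -1.04 and -0.95.

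**Figure D5:**
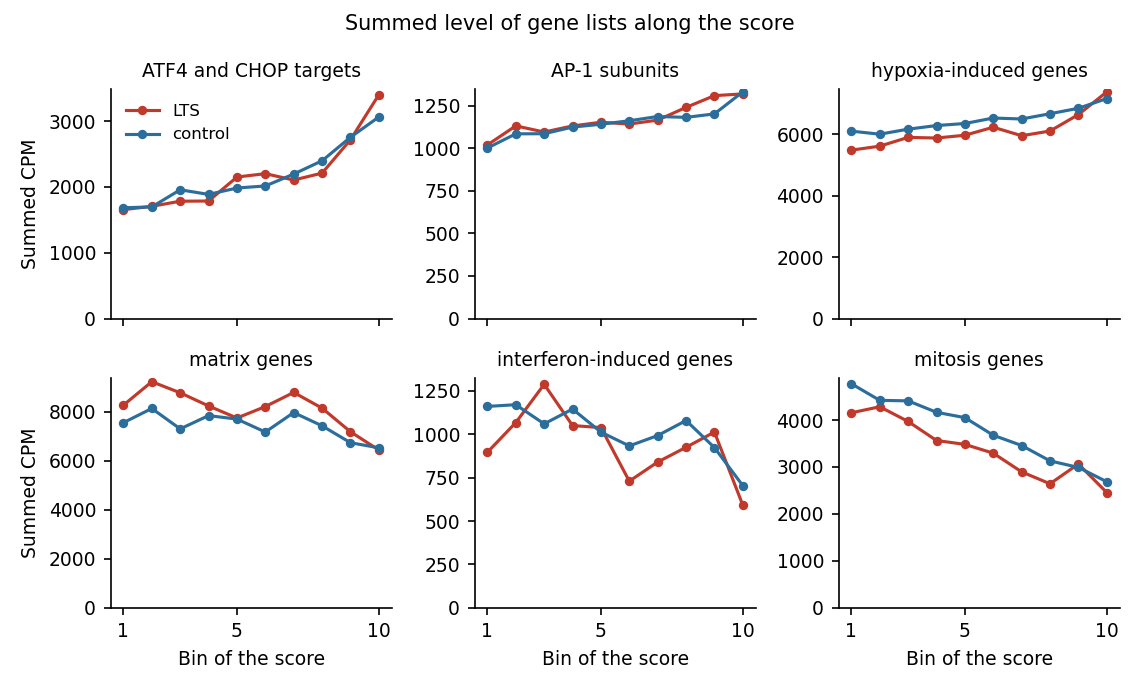
Summed level (CPM, vertical axes from 0) of 6 gene lists in 10 bins of the tumour-like cells by score (horizontal axes, bin 10 the highest), with LTS in red and control in blue. ATF4 targets go up to 3401 CPM in LTS and 3063 CPM in control in bin 10, and mitosis genes are lowest there in both libraries.

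Between the libraries the Il11/Areg-state cells differed little. Of 8115 genes, rule genes included, 1 (0.0123%) was 2-fold or more higher in LTS than in control Il11/Areg-state cells and 21 (0.259%) were lower, against 0 higher (0%) and 16 lower (0.197%) between the other tumour-like cells of LTS and control. The one higher gene was Ttr, transthyretin of the choroid plexus, with 33.2 CPM in LTS and 5.55 CPM in control Il11/Areg-state cells. Among other tumour-like cells Ttr had 35.1 CPM in LTS and 16.1 CPM in control, and barcodes of at most 100 UMIs, which hold RNA free of cells, held it at 1257 CPM for LTS and 71.8 CPM for control. Its part in the result was not tested. With the top 20% of the score the LTS over control ratio of Ttr was -0.29. Among the 21 lower genes were C1qa and C1qb, on which the rule sets a limit in UMIs per cell: the C1q genes summed to 35.8 CPM in LTS and 81.2 CPM in control Il11/Areg-state cells, and 34.0 CPM and 86.3 CPM in the others. Ifit1 was also among the 21, but its LTS over control ratio changed sign with the top 20% of the score. Vegfa, which drives vessel growth, had 178 CPM in LTS and 116 CPM in control Il11/Areg-state cells, a ratio of 0.60 on the log2 scale, against 77.2 CPM and 69.9 CPM in the other cells. Hilpda, induced by hypoxia, had 76.1 CPM in LTS and 49.6 CPM in control Il11/Areg-state cells, against 34.0 CPM and 33.5 CPM in the others. Ppp1r15a, a phosphatase subunit of the stress response, had 78.8 CPM and 56.0 CPM, against 32.5 CPM and 30.2 CPM. Without the 1 cell with most Hilpda in each library, Hilpda had 64.2 CPM in LTS and 48.5 CPM in control Il11/Areg-state cells. The 33 tested hypoxia-induced genes had a median LTS over control ratio of 0.06 in these cells, and Hk2 among them was lower in LTS. Whether these differences exceed those between animals cannot be tested with 1 library each.

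Among the genes lowest in LTS Il11/Areg-state cells, 3 are given here, and each was also lower in the other LTS cells. Exoc1, of the exocyst complex, had 101 CPM in LTS and 293 CPM in control Il11/Areg-state cells, and 95.1 CPM and 235 CPM in the others. Dennd5b had 104 CPM and 283 CPM, and 68.8 CPM and 187 CPM in the others. Snhg9, a host gene of small nucleolar RNA, had 55.7 CPM and 162 CPM, and 45.2 CPM and 147 CPM. Pbld2 also ranked among the lowest, with an LTS over control ratio of -1.45 in the Il11/Areg-state cells. A near-identical copy may make its count uncertain, which was not tested.

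The rule limits Cldn5, Flt1, Pecam1, Ptprc and C1q UMIs, and other markers of other cell types were read beside it. Endothelial markers other than the limited genes summed to 7.06 CPM in LTS and 15.7 CPM in control Il11/Areg-state cells, and 9.97 CPM and 16.0 CPM in the other tumour-like cells. Granulocyte markers summed to 5.30 CPM and 2.49 CPM, with 5 of 7 at 0 in the Il11/Areg-state cells of each library. The 13 macrophage and microglia markers summed to 90.7 CPM in LTS and 160 CPM in control Il11/Areg-state cells, and 112 CPM and 178 CPM in the others. The 12 mural and fibroblast markers, which the rule does not limit, summed to 452 CPM in LTS and 434 CPM in control Il11/Areg-state cells, and 652 CPM and 610 CPM in the others. Of these, Dcn had 342 CPM in LTS and 313 CPM in control Il11/Areg-state cells, while Rgs5, Kcnj8, Abcc9 and Myh11 were each under 0.5 CPM in both. The 4 red blood cell genes summed to 1.60 CPM in LTS and 55.0 CPM in control Il11/Areg-state cells, and 2.46 CPM and 3.81 CPM in the others. One control cell held 422 of the 486 UMIs of these genes in the control Il11/Areg-state cells. Of the neural list 4 genes were tested, 2 above 0 and 2 below 0 in both libraries, with medians of 0.21 in LTS and 0.032 in control. Nes had ratios of 0.65 in LTS and 0.51 in control, and Pdgfra -1.01 in LTS and -0.88 in control. In the Il11/Areg-state cells of either library, 8 of the 19 genes of the list had no UMI.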

How the data were processed

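The authors deposited UMI counts per gene and barcode, without normalization, from Cell Ranger 4 as the file headers record, on mm10 per the submitters' processing notes. Both matrices list 6794880 barcodes and 27998 genes, so they were unfiltered. From these counts, UMIs were summed per library over the Il11/Areg-state cells and over the other tumour-like cells, scaled to CPM (per 1e+06 UMIs), and turned into log2 ratios with a pseudocount of 5 CPM for genes with a mean of at least 10 CPM. A gene was called at 2-fold or more in both libraries. Without replicates no p-value was computed. Intervals at 95% are exact, binomial by Clopper and Pearson for shares and conditional for ratios of counts, treating UMIs as independent. Doublets were not removed, and leaving out cells over the 95th percentile of UMIs was an alternative. Named genes were the 8 rule genes, the 12 highest and 12 lowest of at least 50 CPM and found in at least 10% of cells, the 6 highest and 6 lowest between libraries, and from each of 36 lists the 2-fold genes and the most abundant others. Further genes of the lists are named by role (Btc, Egfr, Rhbdf2, Il11ra1, Id1, Smad7, Gclm, Slc2a1, Irf1) and were chosen after their values were seen. Some genes that the rule names are not reported here. The cells and lists were chosen with earlier results of these data known. Positions come from GENCODE M21 on the same build and promoters from RefSeq. Python 3.11.15, numpy 2.4.6, scipy 1.17.1, pandas 2.3.3 and matplotlib 3.10.9 were used. The calculation of the ratios was tested on simulated independent counts with planted changes. That simulation held no spread between cells and no choice of cells by score, so it does not cover these.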

Additional observations from a re-analysis of the deposited data

Results flagged for a closer look

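Some values had opposite signs in both libraries or lay in data that no comparison used. The differences between libraries were not tested. Median log2 ratios of Il11/Areg-state cells over other tumour-like cells stood at -0.10 (LTS) and 0.087 (control) for the interleukin 6 family, -0.065 and 0.047 for heme and iron handling, -0.13 and 0.059 for inflammatory cytokines and chemokines, and 0.0086 and -0.10 for macrophage and microglia markers. Of 17 other settings, the sign was opposite in 0 (LTS) and 2 (control) for the interleukin 6 family, 1 and 4 for heme and iron handling, 6 and 2 for inflammatory cytokines and chemokines, and 13 and 0 for macrophage and microglia markers. Enah, an actin regulator, had ratios of -0.10 in LTS and 0.47 in control. Ccl5, a chemokine, had -0.13 in LTS and 0.42 in control, and 1 cell held 59.2% of its UMIs in the LTS and 24.9% in the control Il11/Areg-state cells. The 8 rule genes were also present in barcodes of at most 100 UMIs, which hold RNA free of cells, where they summed to 482.2 CPM in LTS and 451 CPM in control. In each library that was above their summed level in the other tumour-like cells and below that in the Il11/Areg-state cells. The part of free RNA in the levels of these genes was not tested.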

How the results depend on the processing

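No paired analysis was possible because each group has 1 library. Under the other settings tried, the count of genes lower in both libraries was 47 for the top 5% of the score, 9 for the top 20%, 17 against others matched on UMIs and 64 with a pseudocount of 1 CPM, where the count of higher genes was 56. Genes 2-fold or more higher in LTS than in control Il11/Areg-state cells numbered 0 for the top 20%, and 2 both without a CPM minimum and with limits per 20000 UMIs, the last chosen after seeing the data. The other 75 counts and share ratios moved less, counts by at most 1.5 times. All 32 shares of cells with a UMI lay outside their intervals when not thinned. Several values changed sign: the mitosis medians were 0.20 in LTS and 0.076 in control without mitosis-high cells (chosen after seeing the data), the EGF receptor system median in LTS was -0.015 without a CPM minimum, and the median of other tumour state genes in control was 0.0081 at 20000 or more UMIs. With the top 20%, Ifit1 and Ttr had LTS over control ratios of 0.22 and -0.29. At the main setting Ifit1 was among the 21 genes 2-fold or more lower in LTS Il11/Areg-state cells, and Ttr was the 1 gene higher. Over all alternatives the medians of ATF4 targets ranged from 0.46 to 0.68 in LTS and 0.40 to 0.49 in control, and those of interferon-induced genes from -1.38 to -0.50 in LTS and -1.10 to -0.64 in control. Lists with under 3 tested genes were dropped from these medians after their values were seen: Ccl5, the one tested lymphocyte marker, had an LTS over control ratio of -0.40 that became 0.46 with the score taken after thinning. Of 1500 list medians at other settings, 133 were of opposite sign, 129 of them of lists whose median was under 0.26 in size, and 179 moved by more than 0.1, of which 33 were of opposite sign. Both sizes were chosen after values were seen. Depth limits genes near 10 CPM.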
